A study of Homo sapiens with 16 samples.

Results

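Poly(A) RNA of SUM159 cells was compared after exposure to indisulam and in cells left without drug. The libraries were taken by their labels, the 2 SUM159 libraries with indisulam and the 2 untreated SUM159 libraries, and they make up 4 of the 16 libraries of the series. The remaining libraries are SUM159 with palbociclib or with both drugs and A549, a lung cancer line, under the same 4 conditions. SUM159 is an established triple-negative breast cancer line of mesenchymal type, lacking the oestrogen and progesterone receptors and amplified ERBB2. Indisulam was given at 3 µM for 16 h, no vehicle is named for the untreated cells, and both groups grew in a medium that holds insulin and hydrocortisone. The duplicates of a group are technical by the description of the series, so the p-values below measure the spread between such duplicates in 1 line and not between independent cultures.

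Indisulam is an aryl sulfonamide that acts as a molecular glue. It brings the splicing factor RBM39 to DCAF15, the substrate receptor of a CUL4 ubiquitin ligase, and RBM39 is then ubiquitinated and degraded. RBM39 binds to introns and exons together with U2AF and SR proteins, and its loss leads to skipped exons and retained introns. Transcripts misspliced in this way can carry early stop codons and be removed by nonsense-mediated decay, or stay unspliced. The study used the drug because it had been described as an indirect inhibitor of CDK2, and asked whether it could take the place of CDK2 loss beside palbociclib. The values here are gene counts, which show the level of a gene's reads and not its splice forms, nor the amount of its protein.

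The 4 libraries held between 21926985 and 28612899 gene counts, and 16080 of the 58676 gene identifiers had enough counts to be tested. Levels are given as CPM, the counts scaled by library size after TMM normalization, in the order untreated replicates 1 and 2 and then indisulam replicates 1 and 2, and changes are on the log2 scale with their standard error (SE). Duplicates differed by more than sampling noise, and the chi-square over its degrees of freedom was 10.0 for the untreated pair and 1.65 for the indisulam pair. Untreated replicate 2 held fewer mitochondrial transcripts than replicate 1, with 19212 CPM over the 15 genes against 36504 CPM, beside 54247 and 55125 CPM with indisulam. The line's identity was checked on its markers. ESR1, PGR, CDH1 and EPCAM were under 1 CPM in each of the 4 libraries. ERBB2, the fifth gene listed as absent or low in SUM159, was at 98.3, 101, 114 and 119 CPM, and the luminal keratin genes KRT8 and KRT18 were present, at 618, 629.9, 533 and 552 CPM and at 445, 449, 354 and 358 CPM. The 6 genes known to be present in SUM159, vimentin among them, summed to 9142 and 9265 CPM untreated and 7808 and 7887 CPM with indisulam. Markers of leukocytes summed to between 4.89 and 5.40 CPM over all 4 libraries. Of the endothelial markers PECAM1 was present at 19.5, 17.4, 30.8 and 27.8 CPM, and the other 3 were under 1 CPM.

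Many genes moved, and most of them moved little. At an adjusted p-value of 0.05 (edgeR quasi-likelihood test), 46.9% of the genes tested were called, and 21.9% of those tested were higher and 24.9% lower with indisulam. The counts of gene lists below are to be read beside these shares. In 73.9% of all genes tested the libraries of one group both lay above those of the other, so a lack of overlap between duplicates is by itself common here. The median change of the genes called higher was 0.44 and that of the genes called lower -0.32. Of the lower calls 1413 were under 0.25 in size and 1473 between 0.25 and 0.5, while 33 reached 2. Calls with a change of at least 1 made up 3.74% of the genes for rises and 1.87% for falls. Scaling to total counts in place of TMM raised the median change by 0.05, and the calls turned from 3527 higher and 4011 lower to 4334 higher and 3160 lower, so that higher genes made up 57.8% of calls in place of 46.8%. DESeq2 called 2316 genes higher where edgeR called 3527.

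The large rises lay mostly in genes of low level. Of the 601 rises of at least 1, 532 were in genes that averaged under 5 CPM, and so were 220 of the 300 falls of that size. Among the 10498 genes with at least 5 CPM, 69 rose and 80 fell by at least 1. The plot of change against level shows this widening towards low levels on the upper side. Of the genes called, 73.2% overlap the annotated span of another gene, whose reads may be shared or lost in counting, since the strand setting of the counts is not given in the sources used here.

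**Figure D1:**
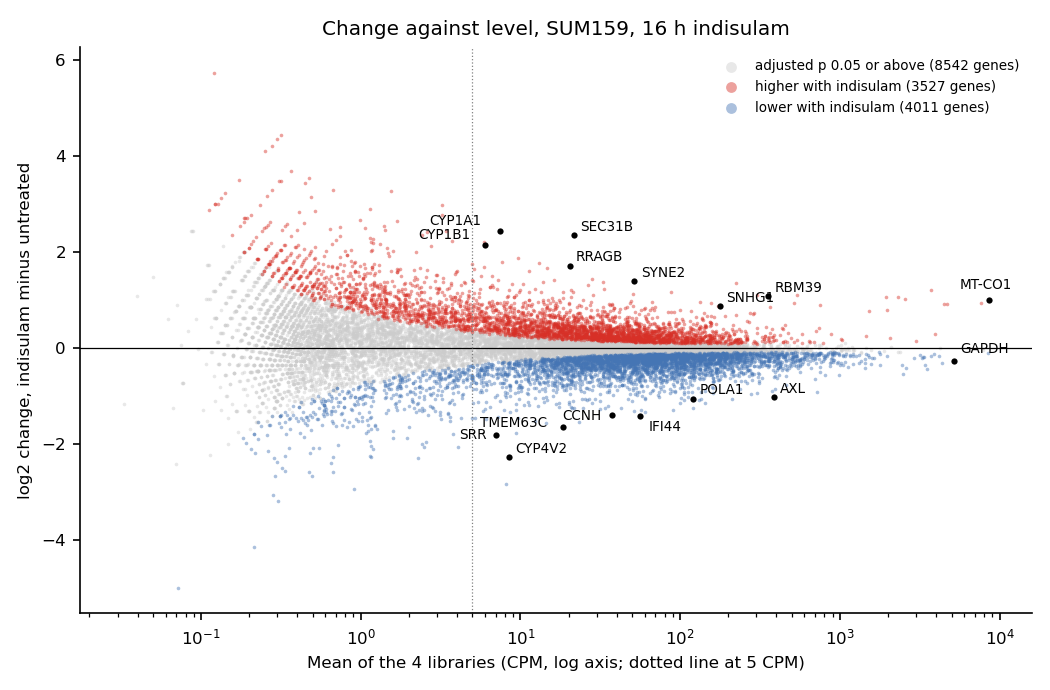
Log2 change with indisulam in SUM159 (vertical axis) against the mean level of each gene in CPM over the 4 libraries (horizontal, log scale), 1 point per gene, with 8542 genes not called, 3527 higher and 4011 lower. Most rises of at least 1 lie left of the dotted line at 5 CPM, and RBM39, CCNH, CYP1A1 and other named genes are labelled.

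The gene of the drug's target was higher and the genes of its ligase moved little. RBM39, a splicing factor with RNA recognition motifs (chromosome 20, 35701347 to 35742312 on GRCh38, overlapping no other gene), was at 229, 224, 485 and 478 CPM. Its mRNA thus rose in both indisulam libraries, by 1.09 (SE 0.036, edgeR adjusted p 3.6e-12). RBM23, a paralogue that indisulam also brings to DCAF15, was at 62.4, 62.9, 82.6 and 82.8 CPM and rose by 0.40 (adjusted p 1.9e-06). DCAF15 itself was at 30.1, 28.4, 30.4 and 29.8 CPM, a change of 0.04 that did not pass (adjusted p 0.65). Of the ligase's other genes, the scaffold CUL4B rose by 0.25, and the scaffold CUL4A and the adaptor DDB1 fell by 0.29 and 0.22. Over the 6 ligase genes 2 rose and 2 fell.

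CCNH, the cyclin H gene, carried the largest change among the genes of the CDK-activating kinase and of TFIIH, the transcription factor it belongs to. This kinase phosphorylates the activation loop of CDK2 and CDK1. CCNH (chromosome 5, 87318416 to 87412930) was at 54.6, 53.8, 19.8 and 21.1 CPM and fell by 1.40. The kinase subunit CDK7 was at 65.3, 68.4, 68.2 and 66.8 CPM and the assembly factor MNAT1 at 25.2, 26.3, 25.2 and 24.9 CPM, and neither passed the test (adjusted p 0.84 and 0.65). In the TFIIH core 2 of 6 genes fell and none rose. GTF2H1, which encodes the p62 subunit, went from 97.7 and 98.7 CPM to 56.3 and 57.9 CPM, a fall of 0.78 on the log2 scale (SE 0.048, adjusted p 1.6e-09), and GTF2H3 fell by 0.33.

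The CDK1 and CDK2 system lay slightly lower at the RNA level. Of 22 genes 2 rose and 13 fell, with a median of -0.16 beside a median of 0.01 over all genes tested. CDK1 was at 149.7, 154, 129 and 126 CPM and fell by 0.26. CDK2 was at 103, 95.1, 86.8 and 89.3 CPM, a change of -0.17 (SE 0.049, adjusted p 0.01), and the call was lost with total count scaling (-0.11), without untreated replicate 1 (-0.11) and without indisulam replicate 1 (-0.15). The cyclin E gene CCNE2 fell by 0.46 and FBXO5, an inhibitor of the anaphase-promoting complex, fell by 0.54, from 57.9 and 58.7 CPM to 41.8 and 38.8 CPM. CDKN1A, which encodes the CDK inhibitor p21, was also lower, at 41.2, 39.4, 33.6 and 34.0 CPM (-0.25, adjusted p 0.0012). WEE1, the kinase that puts an inhibitory phosphate on CDK1, went the other way, from 49.98 and 52.3 CPM to 63.7 and 70.9 CPM, and rose by 0.40.

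Genes of DNA synthesis formed one of the more uniform groups of falls. Of 54 genes of replication and of the E2F system 37 fell and 6 rose, where 24.9% of all genes fell, and the median change was -0.25. The number of rises was 2 without either untreated library and 1 with DESeq2. All 7 genes of nucleotide supply fell, with a median of -0.57. Among them TYMS, the thymidylate synthase, went from 209 and 212 CPM to 112 and 109 CPM, and RRM2, the small subunit of ribonucleotide reductase, from 217 and 219 CPM to 143 and 134 CPM. The largest falls were those of POLE2, a subunit of polymerase epsilon, of CDC45, a part of the replicative helicase, and of POLA1, the catalytic subunit of polymerase alpha. POLE2 was at 34.7, 34.1, 14.03 and 15.02 CPM (-1.24, SE 0.071). CDC45 was at 66.1, 69.0, 32.1 and 31.2 CPM (-1.09, SE 0.053) and POLA1 at 157, 169, 78.8 and 78.0 CPM (-1.05, SE 0.044). ORC1, the largest subunit of the origin recognition complex, was an exception, since it rose by 0.41 from 61.3 and 65.4 CPM to 82.8 and 85.5 CPM. DNMT1, which copies DNA methylation behind the fork, fell by 0.72.

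Mitotic genes and repair genes followed with smaller changes. Of 62 mitotic genes 39 fell and 4 rose, where 24.9% and 21.9% of all genes did, with a median of -0.22, and the rises numbered 10 under total count scaling. MYBL2, a transcription factor of late cell cycle genes, was at 131, 124, 72.2 and 69.9 CPM and fell by 0.84. The kinesin KIF20B fell by 0.81 and the condensin subunit NCAPG by 0.76. CENPF, a kinetochore protein, was higher, at 191, 202, 237 and 243 CPM (0.29), and MKI67, whose protein coats mitotic chromosomes, was at 483, 537, 459 and 478 CPM, where the groups did not overlap but the change of -0.12 did not pass (adjusted p 0.12). In homologous recombination and the Fanconi anaemia pathway 19 of 36 genes fell and 4 rose. The falls included 10 of 13 Fanconi genes. ATR, the kinase that answers stalled forks, went from 102 and 104 CPM to 57.9 and 52.98 CPM, a fall of 0.90, while FANCI fell by 0.83 and FANCD2 by 0.80. BRCA2, CHEK2 and RAD51D rose by 0.28, 0.43 and 0.45.

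The regulators of splicing moved in both directions, and of 83 genes 37 rose and 21 fell. SR proteins bind exonic enhancers and recruit the spliceosome, and of 18 genes of this class 13 rose and 2 fell, with a median of 0.19. Of 25 hnRNP genes 8 rose and 10 fell, and the falls numbered 6 with total count scaling, where falls no longer outnumbered the 8 rises, and 6 without indisulam replicate 2. Of the 40 other regulators 16 rose and 9 fell. PTBP2, the neuronal form of a splicing repressor, was at 19.3, 17.0, 48.0 and 46.3 CPM and rose by 1.38 (SE 0.072, adjusted p 2.6e-10). Its widely expressed relative PTBP1 was at 537, 512, 654 and 629 CPM and rose by 0.29. SRRM1, a coactivator that bridges SR proteins and the spliceosome, rose by 0.74, from 226 and 208 CPM to 357 and 367 CPM. HNRNPH1 and the signalling-linked RNA binder KHDRBS1 were lower, the first at 562, 530.1, 414 and 435 CPM (-0.36) and the second at 328, 337, 236 and 229 CPM (-0.52).

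Kinases that phosphorylate SR proteins and genes of the core machinery also moved both ways. Of the CLK kinases 3 of 4 rose, with CLK4 going from 20.8 and 17.3 CPM to 35.7 and 35.01 CPM (0.89) and CLK1 rising by 0.33, and SRPK1 fell by 0.27. Over the 14 kinases 7 rose and 1 fell, and the rises numbered 3 with DESeq2, 3 without indisulam replicate 2 and 11 with total count scaling. In the core spliceosome 18 of 74 genes rose and 18 fell, 24.3% each way beside 21.9% and 24.9% over all genes, and the falls numbered 9 with total count scaling, 9 without indisulam replicate 2 and 11 without untreated replicate 2. CDC5L, of the Prp19 complex, was at 119, 121, 167 and 165 CPM and rose by 0.47. EFTUD2, the GTPase of the U5 particle, was at 462, 477, 345 and 354 CPM and fell by 0.42.

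Transcripts that are known targets of nonsense-mediated decay rose more often than they fell. This pathway degrades RNA with an early stop codon and sets the level of several stress genes and of the spliced hosts of small nucleolar RNAs. Of 16 such transcripts 9 rose and 2 fell, where 21.9% of all genes rose and 24.9% fell, with a median of 0.22. They include 9 host genes, of which 5 rose and 1 fell, and 7 stress genes, of which 4 rose and 1 fell. The list of host genes that follows shares members with them, SNHG1 and SNHG5 among these. Of 26 host genes 13 rose and 2 fell, with a median of 0.20, and 8 rose with DESeq2 or without indisulam replicate 2. SNHG1 was at 135, 117, 229 and 232 CPM and rose by 0.87, although 7 genes overlap its span on the same strand. GAS5 was at 126, 117, 147 and 159 CPM (0.33), and SNHG5 fell by 0.33. Of the 19 factors of the pathway 6 rose and 7 fell, or 31.6% and 36.8%, and the falls numbered 4 with total count scaling and 4 without either indisulam library. UPF3B, which links the exon junction complex to the decay machinery, rose by 0.46, from 54.1 and 53.5 CPM to 73.6 and 74.1 CPM.

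Reads outside annotated features made up a larger share in the indisulam libraries of this line than in the untreated ones. Each file also counts the uniquely aligned reads that fell in no annotated feature, which include reads from introns and from between genes. They made up 4.17% and 4.06% of uniquely aligned reads in untreated libraries and 5.97% and 6.37% with indisulam, a difference of 2.05 percentage points and a ratio of 1.50. The indisulam share was above both untreated shares on 23 of 23 chromosomes counted, by 1.70 to 3.51 points. The chromosomes are parts of the same 4 libraries and are not replicates. With 2 against 2 libraries the exact permutation test (two-sided) gave p 0.333, the smallest this design allows. The share was also 5.19% and 5.71% in SUM159 with palbociclib and 7.12% and 6.23% with both drugs. In A549 it was 4.23% and 4.80% untreated and 6.02% and 6.29% with indisulam.

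**Figure D2:**
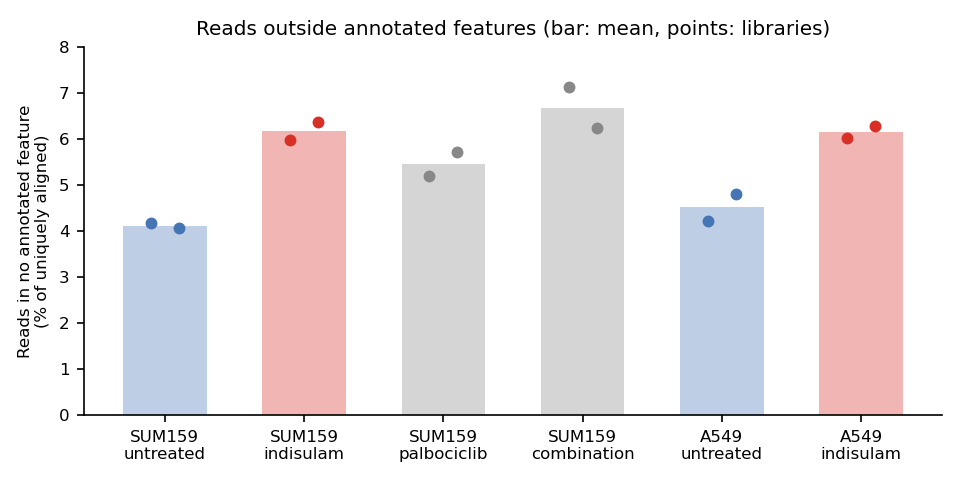
Share of uniquely aligned reads that fell in no annotated feature, in percent (vertical axis), 1 point per library, for SUM159 untreated, with indisulam, with palbociclib and with both, and for A549 untreated and with indisulam. The SUM159 indisulam libraries lie at 5.97% and 6.37%, above the untreated libraries at 4.17% and 4.06%.

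Gene structure went with small differences in the typical change, described here without a test. Among protein-coding genes with at least 5 CPM the median change was 0.03 in 264 genes of 1 exon, -0.03 in 3100 genes of 5 to 9 exons, -0.07 in 1342 genes of 20 to 39 exons and -0.16 in 209 genes of 40 or more. In the last class 49.3% of genes fell and 13.4% rose. Its median was -0.26 without untreated replicate 1 and -0.09 without untreated replicate 2. The untreated duplicates themselves differed in this class, with a median of 0.12 for replicate 2 over replicate 1, and the part of that difference in the result was not tested.

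Genes with a ZNF symbol, which encode zinc-finger proteins and many of which are repressors, were examined after their values were seen. Of 435 such genes 44.6% were higher and 7.13% lower, where 22.2% and 28.6% of all protein-coding genes were. At 5 to under 20 CPM 53.9% of 193 ZNF genes were higher, with a median of 0.29, and 28.4% of 2216 other protein-coding genes, with a median of 0.05. Many ZNF genes are near copies of each other, so their reads can be split between them.

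Most genes listed for the aryl hydrocarbon receptor rose, and the largest rises were in 2 of its target enzymes. Of the receptor and its partners 3 of 4 genes rose and 1 fell. AHR is a ligand-activated transcription factor that pairs with ARNT at the core motif GCGTG and turns on enzymes of xenobiotic metabolism together with its own repressors. Of 13 genes tested 8 rose and 1 fell, with a median of 0.53 beside 0.01 over all genes, and the counts were 8 and 1 with DESeq2 as well. Of the 6 target enzymes tested 2 rose, CYP1A1 and CYP1B1, and 4 did not pass, namely NQO1, ALDH3A1, ALDH1A3 and UGT1A6. Both CYP1 genes were under 5 CPM in untreated cells. CYP1A1 was at 2.12, 2.49, 12.6 and 12.5 CPM and rose by 2.44 (SE 0.13). CYP1B1 was at 2.31, 2.11, 9.26 and 10.2 CPM and rose by 2.14 (SE 0.14), and 1 gene overlaps it on the same strand. The repressor genes AHRR and TIPARP rose. AHRR, the AHR repressor, was at 8.77, 9.05, 23.2 and 24.3 CPM (1.41), and TIPARP, which ADP-ribosylates AHR, was at 106, 109, 166 and 163 CPM (0.61). AHR itself rose by 0.32, from 47.04 and 49.96 CPM to 60.7 and 60.2 CPM, and ARNT fell by 0.34, from 41.4 and 41.3 CPM to 31.7 and 33.6 CPM. NQO1, a target shared with NRF2, was at 245, 251, 258 and 245 CPM and did not pass (adjusted p 0.70).

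The promoters of 3 of these genes are shown because they hold the AHR core motif and their genes rose. They are the 250 bases before a RefSeq start on GRCh38.p14, 5′ to 3′ on the strand of the gene, for CYP1A1 at chr15:74725529-74725778 on the minus strand, for AHRR at chr5:321464-321713 on the plus strand and for TIPARP at chr3:156674340-156674589 on the plus strand. Capitals mark GCGTG or, for the opposite strand, CACGC.
CYP1A1: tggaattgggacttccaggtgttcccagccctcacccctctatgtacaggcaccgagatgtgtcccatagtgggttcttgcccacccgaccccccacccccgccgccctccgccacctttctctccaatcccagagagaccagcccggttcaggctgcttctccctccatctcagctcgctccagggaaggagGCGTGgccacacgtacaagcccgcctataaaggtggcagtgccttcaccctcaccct
AHRR: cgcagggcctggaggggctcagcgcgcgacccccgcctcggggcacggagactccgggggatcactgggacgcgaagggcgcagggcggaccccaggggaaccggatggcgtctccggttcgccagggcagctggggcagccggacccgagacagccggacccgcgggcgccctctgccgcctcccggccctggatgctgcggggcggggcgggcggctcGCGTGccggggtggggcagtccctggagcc
TIPARP: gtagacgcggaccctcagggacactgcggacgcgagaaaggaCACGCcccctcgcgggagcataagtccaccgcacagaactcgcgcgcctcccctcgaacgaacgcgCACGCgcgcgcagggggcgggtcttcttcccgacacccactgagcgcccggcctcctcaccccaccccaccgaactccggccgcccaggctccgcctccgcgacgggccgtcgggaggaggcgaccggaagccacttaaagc
The motif begins 57 bases before the start in CYP1A1 and 30 before it in AHRR, and TIPARP holds 2, at 208 and 142 bases. The TIPARP promoter shown belongs to 1 of 3 starts of that gene, and no motif was found before the others. In the list, 10 genes have 16 starts in the table, and the motif was found before 8 of these starts, in 6 genes. Of all 35116 RefSeq promoters searched on both strands 32.2% hold it, so a match alone is common.

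The 12 largest rises among protein-coding genes with at least 5 CPM ran from 2.44 in CYP1A1 to 1.50 in ABTB1. These and the falls below were taken only from genes that passed the test without overlap between the groups. The level is the mean of the 4 libraries, and 8 of the 12 averaged under 5 CPM in untreated cells, so that they passed this minimum through the indisulam libraries. Between CYP1A1 and CYP1B1 stood SEC31B, a coat protein of vesicles leaving the endoplasmic reticulum. SEC31B was at 7.66, 6.51, 34.1 and 38.1 CPM (2.35, SE 0.13), and 1 gene overlaps it on the same strand. VIPR1, the receptor for vasoactive intestinal peptide, was at 4.19, 4.07, 14.5 and 15.6 CPM (1.87, SE 0.11, adjusted p 6.2e-10). BMF, which encodes a BH3-only protein that triggers apoptosis, was at 3.42, 3.40, 12.7 and 10.98 CPM (1.79, SE 0.13). RRAGB, a GTPase that reports amino acids to mTORC1, was at 9.54, 9.48, 30.1 and 32.3 CPM (1.72, SE 0.082) and overlaps no other gene. The remaining rises were those of the hormone gene AMH (1.77), of PAM16 of the mitochondrial import motor (1.74), of the gasdermin GSDMC (1.69), of the adaptor DOK3 (1.66), of the transporter SLC16A6 (1.50) and of ABTB1. PAM16 shares its span with 4 genes of its own strand, which leaves its level in doubt.

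The 12 largest falls included several metabolic enzymes, and 6 of them averaged under 5 CPM with indisulam. CYP4V2, a fatty acid hydroxylase, and SRR, which makes D-serine, fell by 2.27 and fell by 1.82, and each overlaps 1 gene of its own strand. SFXN2, a mitochondrial carrier, was at 14.4, 14.4, 3.97 and 4.50 CPM (-1.76, SE 0.11) and overlaps none. PEX3, needed to build peroxisomes, was at 35.8, 32.9, 11.5 and 12.2 CPM (-1.53, SE 0.076). IFI44, an interferon-induced gene, had the highest level among them, at 83.1, 79.9, 29.5 and 31.1 CPM (-1.42, SE 0.056, adjusted p 1.2e-11). TMEM63C fell by 1.65, R3HDM2 by 1.56, the diacylglycerol kinase DGKB by 1.51, the cilium gene CFAP300 by 1.47, the molybdenum cofactor sulfurase MOCOS by 1.46, the olfactory receptor gene OR51B5 (-1.45) and the coronin CORO2B by 1.44. OR51B5 shares its span with 9 genes on its own strand and TMEM63C with 3. In the plot of these genes the untreated and indisulam points of each gene lie apart, which the rule for choosing them required.

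**Figure D3:**
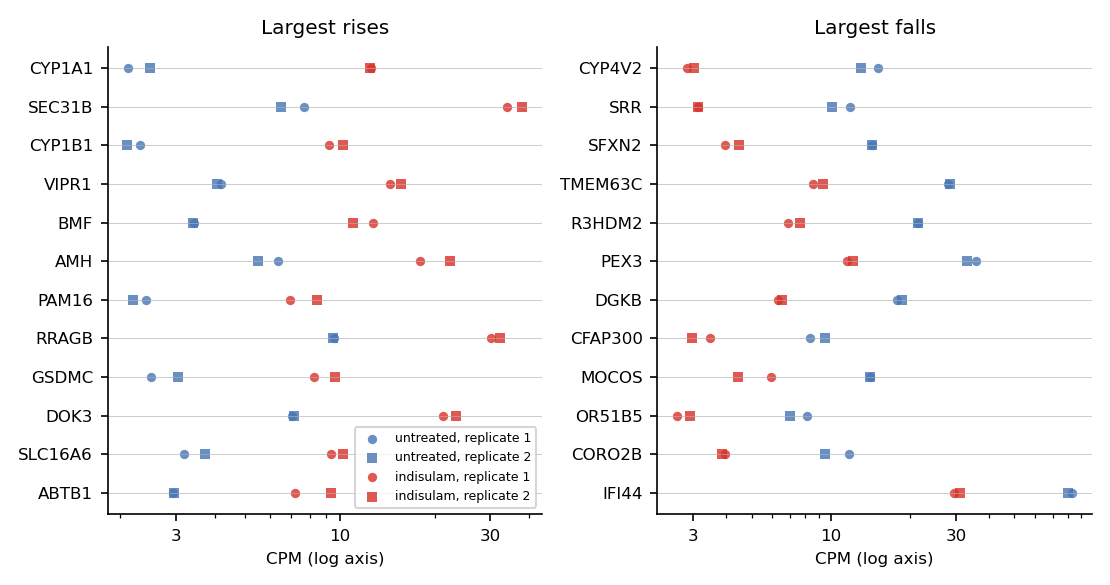
Level in CPM (horizontal axis, log scale) in each of the 4 SUM159 libraries for the 12 largest rises and 12 largest falls among protein-coding genes that averaged 5 CPM or more. Only called genes without overlap between the groups were eligible, so the gap between the groups is part of the choice. Duplicates lie close together beside the distance between the groups, from 2.12 and 2.49 to 12.6 and 12.5 CPM for CYP1A1 and from 83.1 and 79.9 to 29.5 and 31.1 CPM for IFI44.

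Among genes that encode no protein, OLMALINC, a long non-coding RNA, rose by 1.61, from 5.16 and 5.98 CPM to 16.6 and 17.4 CPM. The pseudogene SDHAP4 rose by 1.30 and can share reads with SDHA. LINC01287 was at 47.2, 42.3, 18.6 and 18.7 CPM and fell by 1.26, and LINC01085 fell by 1.33. Long non-coding genes were mostly of low level, and of the 235 with at least 5 CPM 35.3% were higher and 24.3% lower.

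The largest losses by amount were in structural and glycolytic genes of high level. VIM, the intermediate filament of mesenchymal cells, went from 4140.4 and 3963 CPM to 2935 and 3013 CPM, a fall of 0.45. The glycolytic enzyme gene GAPDH, the actin gene ACTG1 and the filamin gene FLNA fell by 0.28, 0.30 and 0.35. Beyond these, AXL, a receptor kinase typical of mesenchymal breast cancer lines, was at 507, 524, 253 and 254 CPM, and its fall of 1.02 (SE 0.035) was the largest among the SRF and YAP targets. CCN2, another YAP target, rose by 0.70, from 174 and 165 CPM to 273 and 277 CPM. SNAI2, a repressor of epithelial genes, fell by 0.53, and the collagen gene COL5A1 fell by 0.68. Fibronectin FN1 rose by 0.21, from 1795 and 2036 CPM to 2207 and 2237 CPM, and this call was lost with DESeq2. None of the 8 epithelial genes in the list passed the test, with changes from -0.64 to 0.72. The epithelial genes CDH1 and EPCAM were under 1 CPM in all 4 libraries, a level at which the test can hardly call a change.

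All 15 genes of mitochondrial DNA that were tested rose, while many nuclear genes of the same respiratory chain fell. MT-CO1, a catalytic subunit of complex IV, was at 7535, 3828, 11276 and 11578 CPM (1.01, SE 0.18, adjusted p 1.9e-04). With palbociclib MT-CO1 was at 10735 and 12439 CPM, and the indisulam libraries did not differ from these (-0.02, edgeR adjusted p 0.93). In A549 it was at 13839 and 14978 CPM untreated and 17732 and 14656 CPM with indisulam. The change in SUM159 exceeded that in A549 by 0.84 (SE 0.25, edgeR adjusted p 0.02). MT-ND4, MT-CO2, MT-CO3 and MT-CYB did not pass against palbociclib either. MT-RNR2, the large ribosomal RNA, was at 2888, 1589, 5087 and 5321 CPM (1.22). The untreated duplicates lay far apart, so the median change over the 15 genes, 0.93 with both, was 1.49 without untreated replicate 1 and 0.60 without untreated replicate 2, with 15 of 15 called each time. Of 51 nuclear respiratory chain genes 27 fell and 2 rose, with a median of -0.13. NDUFS1, a subunit of complex I, was at 177, 177, 91.4 and 94.9 CPM (-0.93, SE 0.04), and CYC1 of complex III and SDHA of complex II fell by 0.69 and 0.57. The part of the difference between the untreated duplicates in the size of the mitochondrial result was not tested.

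**Figure D4:**
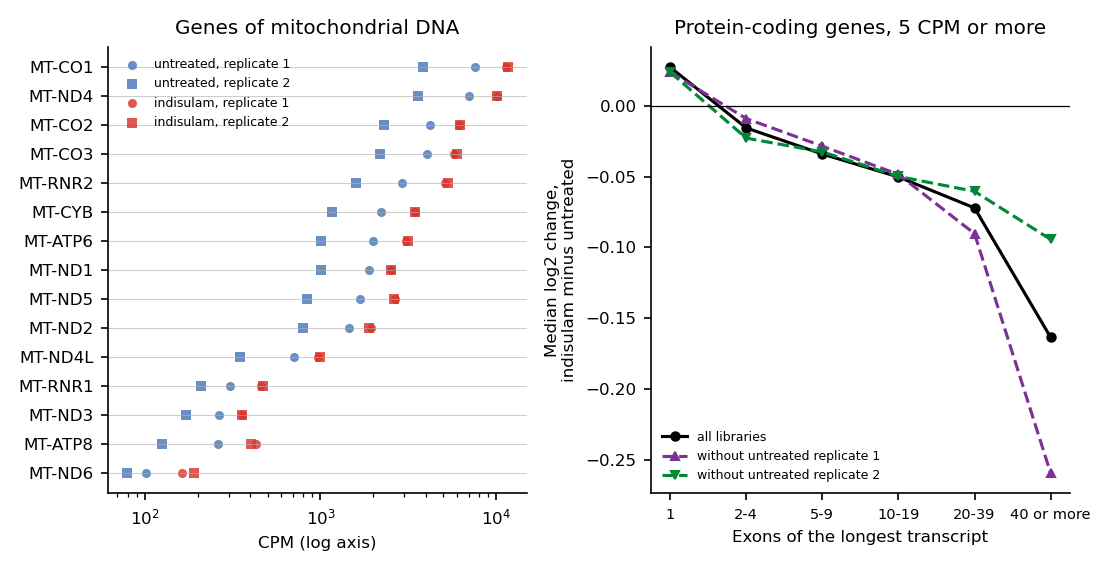
Levels of the 15 mitochondrial genes in each of the 4 libraries in CPM (log scale), and the median log2 change by number of exons for protein-coding genes with at least 5 CPM, with all libraries and without each untreated library. Untreated replicate 2 lies below replicate 1 in the mitochondrial genes, and the class of 40 or more exons has a median of -0.16, or -0.26 and -0.09 without untreated replicate 1 and 2.

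Genes of protein synthesis showed small falls that depended on scaling. Of 82 cytosolic ribosomal protein genes 50 fell and 3 rose, with a median of -0.11, but 17 fell with total count scaling, 28 without untreated replicate 1 and 18 without indisulam replicate 2. RPLP0, of the ribosomal stalk, was at 1622, 1645, 1226 and 1237 CPM (-0.41). MYC, which drives ribosome synthesis, was at 353, 347, 409 and 407 CPM and rose by 0.22, while 9 of 12 of its targets in ribosome synthesis fell, among them NOLC1, by 0.36. CAD, the enzyme that starts pyrimidine synthesis, fell by 0.58. MXI1, an antagonist of MYC, rose by 0.68 from 12.1 and 11.2 CPM to 19.5 and 17.9 CPM.

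Genes of lipid synthesis and interferon-stimulated genes fell more often than they rose. Of 35 genes of cholesterol and fatty acid synthesis 22 fell and 2 rose, with a median of -0.21. SREBF2, the transcription factor of cholesterol synthesis, was at 126, 128, 74.9 and 79.4 CPM and fell by 0.72. ACACA, which makes malonyl-CoA, was at 187, 222, 120.0 and 111 CPM and fell by 0.83, and SCD, the stearoyl-CoA desaturase, fell by 0.51. Of 43 interferon-stimulated genes 22 fell and 8 rose, with a median of -0.15. OASL, an oligoadenylate synthetase-like antiviral gene, was at 87.9, 87.8, 45.4 and 50.4 CPM and fell by 0.87, and HERC5 and IFI44L fell by 1.13 and 1.12. GBP2 and XAF1 rose, from 10.8 and 10.0 CPM to 19.4 and 18.1 CPM and from 13.9 and 11.1 CPM to 17.95 and 21.0 CPM.

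The stress pathways split by branch. The ATF4 branch serves amino acid supply and the ATF6 and XBP1 branches serve folding in the endoplasmic reticulum. Of 20 ATF4 genes 8 rose and 5 fell, and of 19 genes of the other branches 1 rose and 13 fell. SLC7A11, the cystine carrier and a target of both ATF4 and NRF2, had the largest fall, from 81.1 and 90.3 CPM to 35.4 and 32.8 CPM (-1.33, SE 0.059). NUPR1, a stress-induced chromatin protein, rose by 0.97 and CEBPB rose by 0.54. The endoplasmic reticulum chaperone HYOU1 was at 308, 318, 191 and 196 CPM and fell by 0.70. In the list of lysosome and autophagy genes 12 rose and 12 fell of 41. ULK1, the kinase that starts autophagy, went from 19.2 and 18.2 CPM to 35.8 and 37.3 CPM, and GABARAPL1 from 4.96 and 6.94 CPM to 12.2 and 13.4 CPM, rises of 0.97 and 1.11. ATG7, an enzyme of the same process, fell by 0.92, from 32.5 and 32.7 CPM to 17.1 and 17.3 CPM.

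Targets of the glucocorticoid receptor rose for the most part, in cells of both groups that grew with hydrocortisone. Of 11 target genes 8 rose and 1 fell, with a median of 0.42. TSC22D3, which encodes GILZ, was at 112, 111, 149 and 158 CPM (0.47), KLF9 was at 68.8, 70.9, 102 and 97.5 CPM (0.51) and ZBTB16 was at 21.1, 21.0, 32.5 and 33.9 CPM (0.66). FKBP5, the co-chaperone that dampens the receptor, was the target that fell, by 0.21, from 752 and 759 CPM to 655 and 647 CPM. The receptor gene NR3C1 was at 134, 145, 136 and 136 CPM and did not pass (adjusted p 0.58). In the circadian list 6 of 16 genes rose and 3 fell, or 37.5% and 18.8%, and 1 fell without untreated replicate 2. NPAS2, a partner of BMAL1, rose by 1.07 from 14.3 and 12.3 CPM to 27.9 and 27.9 CPM.

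Genes of p53, of apoptosis and of senescence moved in both directions. Of 28 p53 targets 4 rose and 10 fell. The polymerase POLH fell by 0.64, and CCNG1, a feedback gene, rose by 0.42. Of 13 BCL2 family genes 2 rose and 7 fell, with 4 falls under total count scaling, with DESeq2, without untreated replicate 2 and without indisulam replicate 1. BMF was the family member with the largest rise, and the survival gene BCL2L1 and the BH3-only gene PMAIP1 fell by 0.24 and 0.51. The 5 senescence lists of the study gave 8 higher and 13 lower of 36 genes (Casella), 8 and 12 of 36 (Purcell), 7 and 6 of 30 (Hernandez), 6 and 5 of 22 (Hernandez SASP, the secreted factors) and 19 and 17 of 67 (Fridman). The shares of rises ran from 22.2% to 28.4%, beside 21.9% over all genes. For these drugs in SUM159 the study used the lists by ranked enrichment, after days of treatment with both drugs. The counts here are of calls at 16 h with indisulam alone, and so differ from it in time, drug, dose and measure. The rises of the Hernandez list numbered 3 with DESeq2 and 2 without untreated replicate 2 or without indisulam replicate 2. With total count scaling the Casella list had 11 higher and 10 lower and the Purcell list 10 and 8. The rises of the Fridman list numbered 10 with DESeq2 and 11 without untreated replicate 2, and the falls of the Hernandez SASP list 3 without untreated replicate 1.

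**Figure D5:**
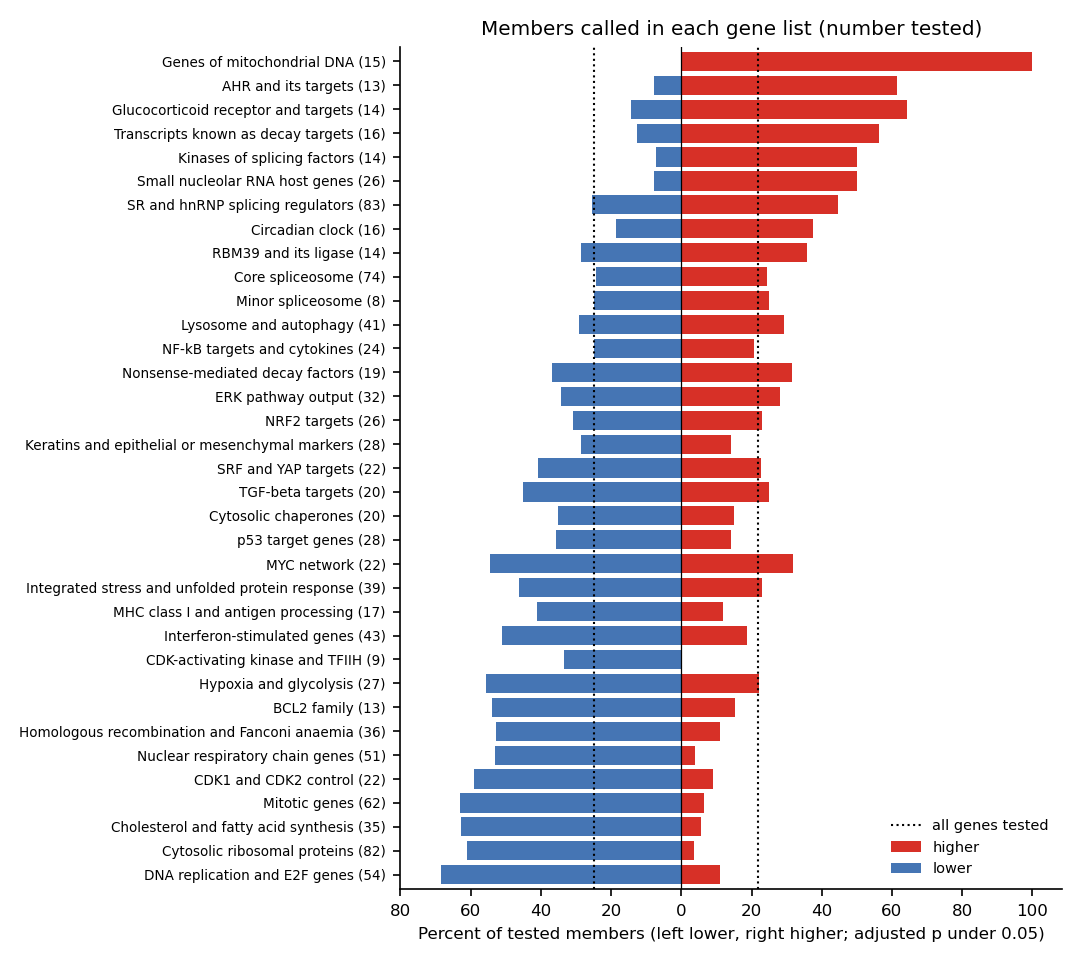
Percent of the tested genes of each list that were called higher or lower with indisulam in SUM159, with dotted lines at the shares over all genes, 21.9% higher and 24.9% lower. The mitochondrial genes (15 of 15), the glucocorticoid receptor list (9 of 14) and the AHR list (8 of 13) lie beyond the line for rises, and the replication list (37 of 54) and the mitotic list (39 of 62) beyond that for falls.

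The same drug in A549 served as a comparison, tested as the difference between the lines in a fit of all 16 libraries, in which 8.04% of 17764 genes differed towards a higher value in SUM159 and 6.96% towards a lower one. RBM39 and CCNH did not pass this test, with differences of 0.03 and 0.14 (adjusted p 0.77 and 0.49). SYNE2, which encodes the nuclear envelope protein nesprin 2, went from 27.0 and 29.96 CPM to 74.2 and 75.6 CPM in SUM159 and from 44.9 and 50.4 CPM to 33.2 and 36.6 CPM in A549, a difference of 1.85 (SE 0.115). For CYP1B1 the A549 libraries were at 129 and 131 CPM untreated and 156 and 155 CPM with indisulam, and the difference was 1.88 (SE 0.136). VIM differed by -0.42. The lines also grew in unlike media, A549 in RPMI for which the study names no insulin or hydrocortisone. Differences between the lines cannot be told apart from those of their media.

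Against palbociclib, the CDK4 and CDK6 inhibitor given at 2 µM for the same time, the indisulam libraries differed in 62.2% of genes. The indisulam libraries are those of the comparison above. The 5 largest differences towards indisulam were in KIF20A, WDR76, SPC25, MKI67 and FAM111B. The mitotic kinesin KIF20A was at 30.5 and 30.6 CPM with palbociclib and at 129.9 and 131 CPM with indisulam, beside 168 and 169 CPM untreated. MKI67 was at 106 and 124 CPM with palbociclib and at 459 and 478 CPM with indisulam, a difference of 2.02. WDR76, SPC25 and FAM111B differed by 2.04, 2.02 and 2.01. On the other side stood CYP4V2 (-3.20), DNHD1 (-3.04), ABCC3 (-2.82), TMEM63C (-2.75) and CCDC92 (-2.56). ABCC3, an export pump for organic anions, was at 239.9 and 263 CPM with palbociclib and at 34.0 and 37.3 CPM with indisulam, beside 71.1 and 67.3 CPM untreated, so the indisulam level was below both others.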

How the data were processed

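Each of the deposited files holds the raw gene counts of 1 library by Ensembl identifier, neither normalized nor pooled. Per the labels and the study's methods, the authors made strand-specific poly(A) libraries, aligned them to GRCh38 with HISAT2 2.2.1 and counted reads with HTSeq. The strand setting and annotation release are not given in the sources used here. Groups and replicate numbers came from the labels.

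Symbols, spans and exon numbers came from GENCODE release 44, which matched 58207 of the 58676 identifiers. edgeR 4.0.16 (with limma 3.58.1, R 4.3.3) fitted the 8 SUM159 libraries with 1 coefficient per group after filterByExpr and TMM scaling. The quasi-likelihood test gave p-values, adjusted by Benjamini and Hochberg at 0.05, and the SE is the change over the root of its F statistic. Differences between lines were interactions in a fit of all 16 libraries, which also gave the A549 CPM. The procedure was tested on simulated data. A count of 3 corresponded to between 0.105 and 0.137 CPM in the 4 libraries, for counting error only. Alternatives were DESeq2 1.42.0, limma-voom, other scalings, filters and fits, the replicate number as a block and leaving out each library.

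Genes were named by rule, namely 7 genes of the drug's targets and of the CDK-activating kinase with CDK2, the 12 largest rises and falls in protein-coding genes with at least 5 CPM, 4 each in other genes, the 5 largest gains and losses in CPM, up to 3 each per list with anchors, and the 5 largest differences each from A549 and from palbociclib. The largest rises and falls, in protein-coding and in other genes, also had to pass the test without overlap between the groups. Differences from A549 needed no overlap between the SUM159 indisulam and untreated libraries, and those from palbociclib none between indisulam and palbociclib. The members and lists were chosen with earlier results of these data known, and the ZNF class after its values were seen. Some genes under this rule are not reported here. Symbols ESPST12, ITG53 and MTCYB of the senescence lists were not matched.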

Additional observations from a re-analysis of the deposited data

Results flagged for a closer look

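Differences between lines are log2 changes with indisulam in SUM159 minus those in A549, from the interaction in the fit of all 16 libraries, and each passed the test of the difference itself. CDK7 differed by -0.29 (SE 0.077, edgeR adjusted p 0.013), with A549 at 33.7 and 33.0 CPM untreated and 42.3 and 40.3 CPM with indisulam and no called change in SUM159. MMP1, a collagenase gene, differed by 2.72, with A549 at 0.320, 0.350, 0.133 and 0.136 CPM, near the level of 3 counts, and SUM159 at 14.7, 15.8, 42.2 and 40.3 CPM. CYP1B1 differed by 1.88 and SYNE2 by 1.85, with opposite directions in SYNE2. CCDC102B differed by 1.76, with a rise of 0.52 in SUM159, from 9.64 and 9.57 CPM to 14.3 and 13.4 CPM, and A549 at 0.640, 0.641, 0.266 and 0.271 CPM, near the level of 3 counts with indisulam. GMPR, a purine enzyme gene, differed by 1.71, with A549 at 2.99 and 2.33 CPM untreated and 0.930 and 0.813 CPM with indisulam and no called change in SUM159 (adjusted p 0.33). RRAD differed by -3.52, with A549 at 0, 0.0583, 0.177 and 0.316 CPM, close to the level of 3 counts. BNC1 differed by -2.05, with a change of -0.25 in SUM159 and A549 at 0.0534, 0.175, 0.310 and 0.497 CPM. IFI44 differed by -1.92, with A549 at 0.534, 0.408, 0.620 and 0.723 CPM, and SNAI2 by -1.58, with A549 at 0.267, 0.291, 0.709 and 0.452 CPM, so all 3 rest on few counts in A549. SPRED3 differed by -1.55.

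Reads outside annotated features are outside the gene counts, and their share in SUM159 was 6.17% on average with indisulam (SD 0.280, n = 2) against 4.11% (SD 0.0786, n = 2) in untreated cells.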

How the results depend on the processing

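Of 16080 genes in SUM159, 7538 were called against untreated cells. The count was 7494 with total counts, 7577 with DESeq2's size factors in edgeR, 7435 with limma-voom, 7859 with the 4 libraries alone, and 5702 to 6116 leaving out 1 library. DESeq2 itself gave 5790, with 2316 higher against 3527. A change of at least 1 left 901, and genes overlapping no other gene left 2042, fewer by construction. Against palbociclib 10005 were called, 1747 by at least 1 and 8699 to 9393 leaving out 1 library. Between lines 2665 differed, 308 by at least 1 and 1723 to 2139 leaving out 1 library, the lowest without SUM159 indisulam replicate 2 (1723) and A549 untreated replicate 2 (1735). Same-numbered libraries did not deviate together (correlation -0.03), so the numbers were not taken as pairs, and the replicate block gave 7237, 9784 and 2428 calls. No change of a named gene that passed the test reversed its sign under any alternative run. With total count scaling the calls turned to 4334 higher and 3160 lower, from 3527 and 4011, and the balance of higher and lower calls turned in 8 of 46 gene lists (factors of nonsense-mediated decay, chaperones, NRF2, ERK, SRF and YAP, NF-kB, Casella and Purcell). The differences between lines of RRAD, BNC1, SNAI2 and CCDC102B missed the threshold without some libraries or with DESeq2, and the cause was not tested.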

Other observations

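Hypoxia genes fell more often than they rose, with 15 lower and 6 higher of 27. CA9, a carbonic anhydrase at the cell surface, was at 25.9, 28.6, 19.2 and 19.2 CPM (-0.51), in the order untreated replicates 1 and 2 and indisulam replicates 1 and 2. EGLN3, an oxygen sensor that marks HIF for degradation, rose by 0.78, from 41.8 and 41.9 CPM to 72.9 and 71.3 CPM. Among 26 NRF2 targets 6 rose and 8 fell, or 23.1% and 30.8% beside 21.9% and 24.9% over all genes, and 10 rose and 6 fell with total count scaling. The aldo-keto reductase AKR1C3 was at 58.0, 53.8, 85.8 and 88.9 CPM (0.64).

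Outputs of signalling pathways were mixed. Over all genes 21.9% rose and 24.9% fell. The shares were 28.1% and 34.4% in the ERK list and 25% and 45% in the TGF-beta list. In the NF-kB list they were 20.8% and 25%, and in the minor spliceosome 25% each way, both near the shares over all genes. In the list of ERK output 9 of 32 genes rose and 11 fell, and the rises numbered 5 with DESeq2 and 5 without untreated replicate 2 and the falls 7 without indisulam replicate 2. With total count scaling 10 rose and 8 fell. EGR1, an immediate early transcription factor, fell by 0.55, from 30.9 and 32.4 CPM to 21.9 and 21.5 CPM, and DUSP6, the phosphatase that feeds back on ERK, rose by 0.42, from 17.6 and 17.4 CPM to 24.0 and 23.1 CPM. Of 20 TGF-beta genes 5 rose and 9 fell, with the ligand TGFB2 higher by 0.39 and LTBP2, a matrix protein, at -0.64. Of 24 NF-kB targets and cytokines 5 rose and 6 fell, and the falls numbered 2 without untreated replicate 1, while 8 rose and 4 fell with total count scaling. ICAM1, an adhesion molecule, rose by 0.40, and the chemokine gene CXCL8 was at 17.0, 14.5, 12.4 and 12.5 CPM (-0.34). In the minor spliceosome, which removes a rare class of introns, 2 of 8 genes rose and 2 fell, with RNPC3 at 12.1, 9.91, 18.5 and 17.3 CPM (0.70) and SNRNP48 at 42.8, 37.6, 26.3 and 25.7 CPM (-0.63).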
